A study of Mus musculus with 18 samples.

Results

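The genes described here encode surface proteins with which antigen-presenting cells raise or lower the response of T cells. They are the costimulatory receptor *Cd40*, the B7 ligands *Cd80* and *Cd86*, the maturation marker *Cd83*, the checkpoint ligands *Cd274* (PD-L1) and *Pdcd1lg2* (PD-L2), and *Icosl*, the ligand of ICOS. These 7 genes were chosen by name as a functional group, and all 7 were present among the 20615 genes of the table. Their mRNA was followed by RNA-seq in 18 samples of bone marrow-derived macrophages (BMDMs), 3 in each of 6 groups.

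Such macrophages form when marrow cells are cultured with M-CSF, here from L929 cell supernatant. The bone marrow came from female mice aged 7 to 12 weeks, either C57BL/6 (B6) or C57BL/6.NOD-*Aec1Aec2* (SjSS), a model of Sjögren's syndrome that carries the NOD intervals *Idd3* (*Aec1*, chromosome 3) and *Idd5* (*Aec2*, chromosome 1) on the B6 background. Cells of both strains were differentiated to day 7 in 20% L929 supernatant and treated in 5%, so M-CSF was present in every group. The groups were untreated BMDMs of each strain (controls), BMDMs of each strain given apoptotic cells (ACs), and BMDMs of each strain given 1 µM CpG for 6 h. ACs were thymocytes killed with dexamethasone, added at 5 per BMDM for 2 h and washed off, and RNA was taken after a further incubation that the labels give as 3 h. CpG is an oligonucleotide sensed by TLR9. The replicates within a group came from separate mice by the study's account, which leaves unstated whether the groups of a strain share these mice. Thymocytes were taken from mice of both strains, and which of them each RNA-seq sample received is not spelled out. The comparison of SjSS with B6 is a comparison of whole congenic strains, and no member lies on either of the chromosomes that carry the intervals (0 of 7). Of the pathway genes with values below, *Cd28*, *Pdcd1*, *Tnfsf4* and *Traf5* lie on chromosome 1. Their place relative to the interval was not examined.

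T cells need a signal through CD28 beside the antigen signal, and CD80 and CD86 give it. CTLA-4 competes for the same ligands, PD-1 binds PD-L1 and PD-L2 and dampens the T cell, and ICOS binds ICOSL and sustains help. CD40 works in the other direction, since its ligand on the T cell activates the macrophage. In macrophages these genes are known to respond to microbial sensors and interferons, while uptake of dying cells is generally known for restraining activation.

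On mm10, *Cd40* lies on chr2:165055627-165072948, *Cd83* on chr13:43785107-43803130 and *Icosl* on chr10:78069360-78079525, all on the plus strand. *Cd274* (chr19:29367455-29388095, plus strand) and *Pdcd1lg2* (chr19:29410919-29471157, plus strand) are neighbours 22.8 kb apart, and *Jak2*, the kinase that carries interferon-gamma signals, ends 54.4 kb before *Cd274*. *Cd86* (chr16:36603869-36666081, minus strand) and *Cd80* (chr16:38458933-38486933, plus strand) share chromosome 16. All 7 are protein coding, and none overlaps another gene.

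The RefSeq promoter table for GRCm38.p6, the build that mm10 is a copy of, held 4 of the 7 genes. The 250 bases before the transcription start are shown for these, because they had different responses below: *Cd274* and *Icosl* were called higher with ACs and with CpG in both strains, *Pdcd1lg2* with CpG, and *Cd80* in no comparison. Each runs 5′ to 3′ on the plus strand, which is the strand of all 4 genes, with matches to a searched motif in capitals.
Cd274: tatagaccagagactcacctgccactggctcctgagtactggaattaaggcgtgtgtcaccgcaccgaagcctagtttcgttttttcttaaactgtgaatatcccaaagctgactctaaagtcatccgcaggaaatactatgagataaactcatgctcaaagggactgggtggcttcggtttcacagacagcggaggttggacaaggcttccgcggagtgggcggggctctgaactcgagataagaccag
Icosl: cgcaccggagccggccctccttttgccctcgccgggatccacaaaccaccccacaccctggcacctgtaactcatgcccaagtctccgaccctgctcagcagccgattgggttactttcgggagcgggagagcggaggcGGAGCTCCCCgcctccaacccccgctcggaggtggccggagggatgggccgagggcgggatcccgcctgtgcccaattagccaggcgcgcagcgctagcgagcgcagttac
Pdcd1lg2: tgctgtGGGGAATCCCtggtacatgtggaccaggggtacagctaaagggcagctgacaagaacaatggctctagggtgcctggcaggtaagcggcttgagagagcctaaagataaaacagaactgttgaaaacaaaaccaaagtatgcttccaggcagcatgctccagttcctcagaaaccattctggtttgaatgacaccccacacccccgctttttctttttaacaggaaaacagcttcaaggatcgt
Cd80: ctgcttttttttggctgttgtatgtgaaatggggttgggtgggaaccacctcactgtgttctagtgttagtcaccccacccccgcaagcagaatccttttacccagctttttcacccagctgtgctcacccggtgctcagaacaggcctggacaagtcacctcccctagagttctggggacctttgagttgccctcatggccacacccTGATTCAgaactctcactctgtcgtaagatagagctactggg
The windows are chr19:29367188-29367437, chr10:78069118-78069367, chr19:29410669-29410918 and chr16:38458683-38458932 in this order. The motifs searched on both strands were the GAS element TTCNNNGAA of interferon-gamma signalling, the ISRE core of the interferon regulatory factors (GAAA, any 2 bases, GAAA), the AP-1 site TGANTCA and the NF-kB consensus. The *Icosl* window held an NF-kB match at -111 to -102 and the *Pdcd1lg2* window one at -244 to -235, counted from the start site. The *Cd80* window held the AP-1 letters at -42 to -36, and the *Cd274* window held none of the 4 motifs. No matches overlapped. Over the 27025 RefSeq promoters of 300 bases, which include 50 after the start, 8.47% held the GAS letters, 3.49% the ISRE core, 7.93% the AP-1 site and 8.18% the NF-kB consensus. A match gives letters only, not a bound site.

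Counts on genes ranged from 30.7 to 57.1 M for each sample, with a median of 47.9 M. All 8 of 8 macrophage markers were detected in every group, with a summed level of 15110 to 23750 CPM (counts relative to the scaled library total). Markers of thymocytes, the cells given as ACs, were low. Without *Cd4*, their summed level was 0.192 to 0.605 CPM in B6 controls, 0.473 to 0.774 CPM in SjSS controls, 1.01 to 1.54 CPM in AC treated B6 and 1.14 to 1.54 CPM in AC treated SjSS BMDMs, and 9 of 12 did not pass the filter on low counts. *Lck* rose with ACs in SjSS BMDMs (2.11 ± 0.47, adjusted p = 0.000803), from 0.0725 to 0.207 CPM in the controls to 0.569 to 0.757 CPM. *Cd4* was at 12.2 to 17.1 CPM in AC treated SjSS and 3.36 to 3.80 CPM in AC treated B6 BMDMs. Its controls were at 9.79 to 11.1 CPM in SjSS and 7.73 to 9.52 CPM in B6. Other markers of this list went the other way. *Rag1* was at 0.139 to 0.178 CPM in AC treated B6, 0.021 to 0.0258 CPM in AC treated SjSS and 0 in all other samples. *Themis*, *Cd8a*, *Cd8b1*, *Bcl11b*, *Cd3d* and *Cd3e* also had higher means in AC treated B6, *Cd3g*, *Trac* and *Thy1* in AC treated SjSS BMDMs, all at few counts. Dendritic cell markers (6 of 7 in the table) summed to 2.80 to 3.75 CPM in AC treated SjSS BMDMs and to 1.17 to 2.72 CPM in the other groups, and *Xcr1* alone was at 1.83 to 2.67 CPM in AC treated SjSS samples. Other markers of this list did not all follow. Means in SjSS controls, AC treated SjSS and AC treated B6 BMDMs were 0.536, 0.263 and 0.243 CPM for *Clec9a*. In the same order they were 0.349, 0.232 and 0.0212 CPM for *Ccr7*, and 0.353, 0.515 and 0.654 CPM for *Zbtb46*. The part of *Lck*, *Cd4* and of these markers in the results was not tested. *Flt3* was at 0 in every AC treated B6 sample and at or under 0.147 CPM (0 to 7 counts) in the AC treated SjSS samples. B cell markers summed to 9.41 to 26.8 CPM, with 5 of 5 in the table, and neutrophil markers to 32.3 to 88.3 CPM, with 3 of 5. Of these *Camp* was listed at 0 in all SjSS controls and was at 0.233 to 0.404 CPM with ACs in SjSS BMDMs. With CpG *Camp* was at 1.12 to 2.34 CPM in B6 and 0.90 to 1.12 CPM in SjSS BMDMs. *Mmp8*, the most abundant of these markers, went the other way with ACs. It was at 79.6 to 84.2 CPM in SjSS controls and 67.9 to 70.4 CPM in AC treated SjSS BMDMs. *Ngp* was at 0 in SjSS controls and at 0 to 0.0841 CPM in AC treated SjSS BMDMs. In these bulk samples, fewer cells with a transcript and less RNA in each cell cannot be told apart. Replicate 3 of the SjSS controls and of the CpG treated SjSS BMDMs lay below the other samples of its group for *Cd83* and *Cd86*, and the values without these samples are given where they matter.

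**Figure D1:**
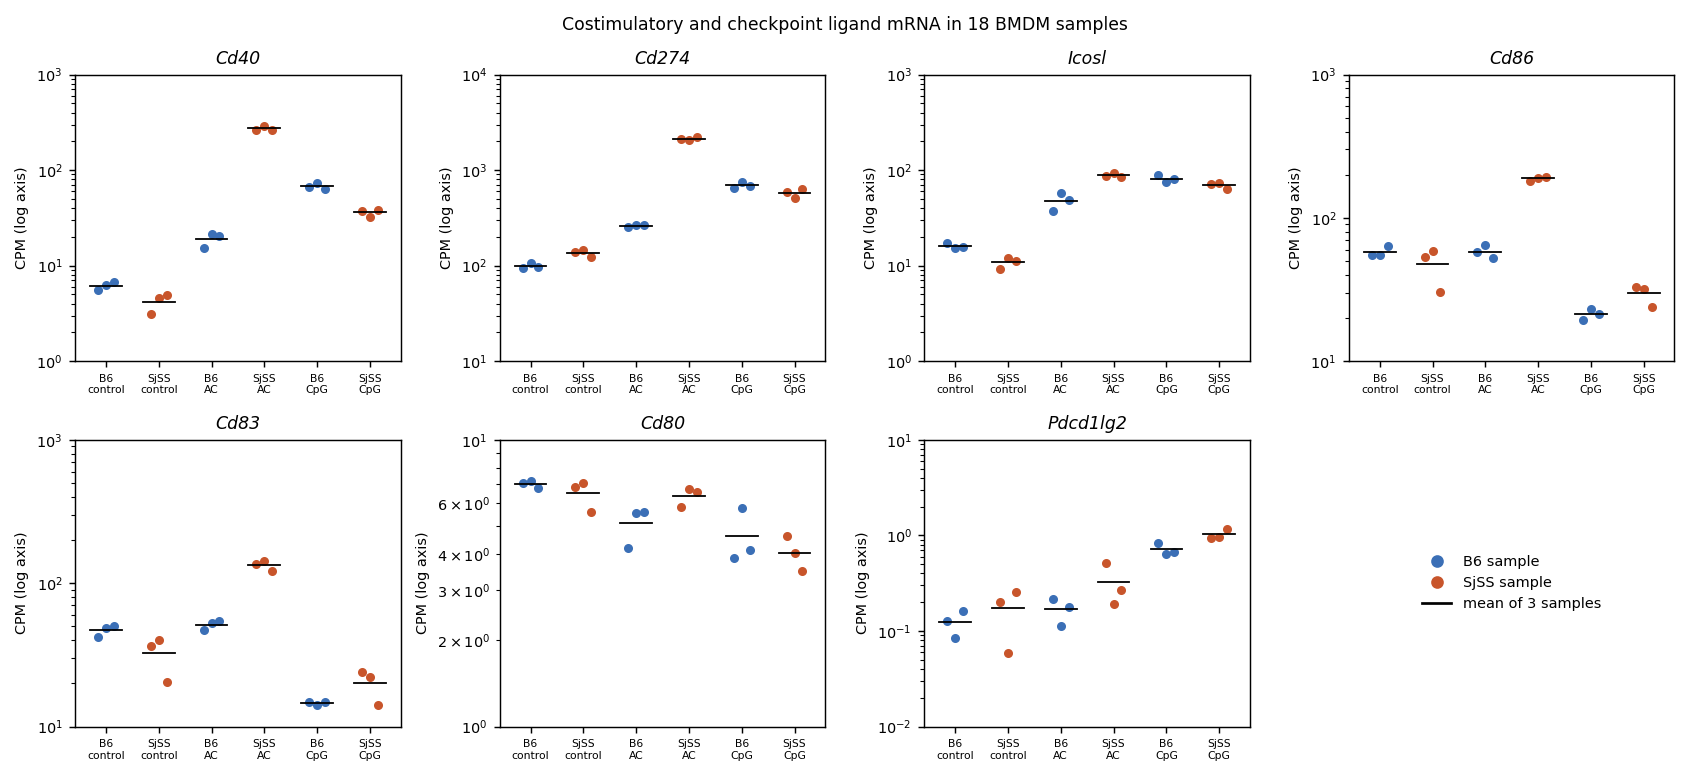
Level of each of the 7 genes in CPM on a log axis, in 6 groups of 3 samples. Points are samples (blue B6, orange SjSS) and lines are group means. AC treated SjSS samples are the highest for *Cd40* (264 to 289 CPM), *Cd274* (2067 to 2230 CPM), *Cd86* (182 to 194 CPM) and *Cd83* (121 to 143 CPM), while *Pdcd1lg2* is highest with CpG.

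*Cd40*, the receptor through which T cells activate macrophages, had the largest log2 fold change of the 7 genes with ACs in SjSS BMDMs. B6 controls were at 5.62, 6.22 and 6.73 CPM and SjSS controls at 3.10, 4.64 and 4.88 CPM. With ACs the B6 samples were at 15.2, 21.3 and 20.4 CPM, and the SjSS samples at 264, 289 and 265 CPM. All AC treated samples lay above all controls, and among the AC treated samples those of SjSS lay above those of B6. With CpG the order of the strains was the opposite, at 66.4, 73.4 and 63.3 CPM in B6 and 37.8, 32.5 and 38.6 CPM in SjSS BMDMs. From low to high, the group means ran from SjSS controls (4.21 ± 0.969 CPM, SD, n = 3) over B6 controls, AC treated B6, CpG treated SjSS and CpG treated B6 to AC treated SjSS BMDMs (273 ± 14.3 CPM), and no neighbouring groups overlapped.

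*Cd274*, which encodes PD-L1, was the most abundant of the 7 genes in every group, both in CPM and for each kb of exon. B6 controls were at 95.7, 107 and 96.0 CPM and SjSS controls at 140, 146 and 122 CPM, without overlap. ACs brought the B6 samples to 256, 264 and 267 CPM and the SjSS samples to 2111, 2067 and 2230 CPM. CpG treated samples lay between these groups, at 653, 748 and 677 CPM in B6 and 593, 514 and 631 CPM in SjSS BMDMs. As for *Cd40*, no groups that neighbour each other in the order overlapped.

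*Icosl* followed the same treatments over a narrower range. The controls were at 17.4, 15.5 and 15.5 CPM in B6 and 9.25, 12.1 and 11.2 CPM in SjSS BMDMs. AC treated samples were at 37.7, 57.8 and 48.3 CPM in B6 and 87.3, 94.2 and 84.4 CPM in SjSS BMDMs, and CpG treated samples at 87.9, 74.2 and 80.5 CPM in B6 and 70.8, 73.0 and 63.9 CPM in SjSS BMDMs. AC treated SjSS and CpG treated B6 samples, the groups with the highest means, overlapped.

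*Cd86*, the B7 ligand carried by resting macrophages, and *Cd83*, a protein that holds CD86 and MHC class II at the surface, showed a different pattern. *Cd86* was at 55.2, 55.2 and 63.4 CPM in B6 controls and at 57.7, 64.3 and 52.8 CPM with ACs, so these groups overlapped. In SjSS BMDMs it was at 53.5, 58.8 and 30.4 CPM in the controls and at 182, 190 and 194 CPM with ACs. CpG treated samples were at 19.4, 23.2 and 21.3 CPM in B6 and 33.2, 32.0 and 24.0 CPM in SjSS BMDMs, and the B6 samples lay below every control. *Cd83* went from 42.1, 48.4 and 50.3 CPM in B6 controls to 47.3, 52.4 and 54.2 CPM with ACs and 14.8, 14.2 and 14.8 CPM with CpG. In SjSS BMDMs it went from 36.7, 40.3 and 20.3 CPM to 136, 143 and 121 CPM with ACs and 24.2, 22.1 and 14.2 CPM with CpG. For both genes the third SjSS sample was the lowest of the controls and of the CpG treated samples.

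*Cd80*, the other B7 ligand, was low and nearly level. Its samples lay between 3.49 and 7.20 CPM in all groups, and the group means ranged from 4.04 ± 0.558 CPM in CpG treated SjSS BMDMs to 7.01 ± 0.210 CPM in B6 controls (SD, n = 3). *Pdcd1lg2*, which encodes PD-L2, was barely detected. It had 2 to 20 counts in each control or AC treated sample and 24 to 51 in each CpG treated sample. In CPM it was at 0.0592 to 0.254 in controls, 0.114 to 0.218 in AC treated B6, 0.189 to 0.517 in AC treated SjSS, 0.639 to 0.827 in CpG treated B6 and 0.945 to 1.17 in CpG treated SjSS BMDMs.

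Levels of different genes were compared for each kb of exon. In these units *Cd86* exceeded *Cd80* by a ratio of 8.37 ± 0.932 in B6 controls, 30.0 ± 1.47 in AC treated SjSS and 4.77 ± 0.639 in CpG treated B6 BMDMs (SD, n = 3). The ratio of *Cd274* to *Cd86* was 1.75 ± 0.217 in B6 controls and 3.08 ± 0.856 in SjSS controls. It was 4.58 ± 0.484 and 11.4 ± 0.413 with ACs, and 33.0 ± 0.961 and 20.3 ± 5.54 with CpG, in B6 and SjSS BMDMs respectively. PD-L1 mRNA was thus above CD86 mRNA in every group, and the ratio was highest with CpG in both strains.

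The first question was how ACs changed the genes within each strain. A gene was called where edgeR's quasi-likelihood test gave a Benjamini-Hochberg adjusted p under 0.05 over the 15789 genes tested and the log2 fold change was over 1.3 in size. In B6 BMDMs 3 of 7 genes were called higher and 0 lower, against 2.43% and 2.04% of all genes. *Cd40* rose by a log2 fold change of 1.62 ± 0.14 (SE, adjusted p = 2.57e-08), *Icosl* by 1.57 ± 0.12 (adjusted p = 8.73e-09) and *Cd274* by 1.40 ± 0.081 (adjusted p = 1.76e-10). *Cd86* (0.01, 95% interval -0.34 to 0.35) and *Cd83* (0.13, -0.25 to 0.51) did not pass the test. *Cd80* was 1.37-fold lower with an adjusted p of 0.0219, under the fold threshold and against 18.3% of genes lower at this p, and the p rose to 0.0509 without B6 control replicate 1, to 0.0573 without control replicate 2 and to 0.123 without AC replicate 1.

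In SjSS BMDMs 5 of 7 genes were called higher with ACs and 0 lower, against 7.09% and 5.83% of all genes. *Cd40* rose 65.3-fold (log2 fold change 6.03 ± 0.15, adjusted p = 2.72e-16) and ranked 60 of the 15789 genes by log2 fold change. *Cd274* rose 15.7-fold (3.97 ± 0.089, adjusted p = 6.48e-17) and *Icosl* 8.20-fold (3.04 ± 0.13, adjusted p = 2.15e-13). *Cd83* rose 4.14-fold (2.05 ± 0.19, adjusted p = 1.82e-08) and *Cd86* 3.99-fold (2.00 ± 0.17, adjusted p = 5.47e-09). *Cd80* was level, with a log2 fold change of -0.02 and a 95% interval of -0.34 to 0.29. *Pdcd1lg2* had 0.81 with an interval of -0.16 to 1.77, from 2 to 20 counts in a sample. The median over the 7 genes was 2.05, beside -0.02 over all genes tested.

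**Figure D2:**
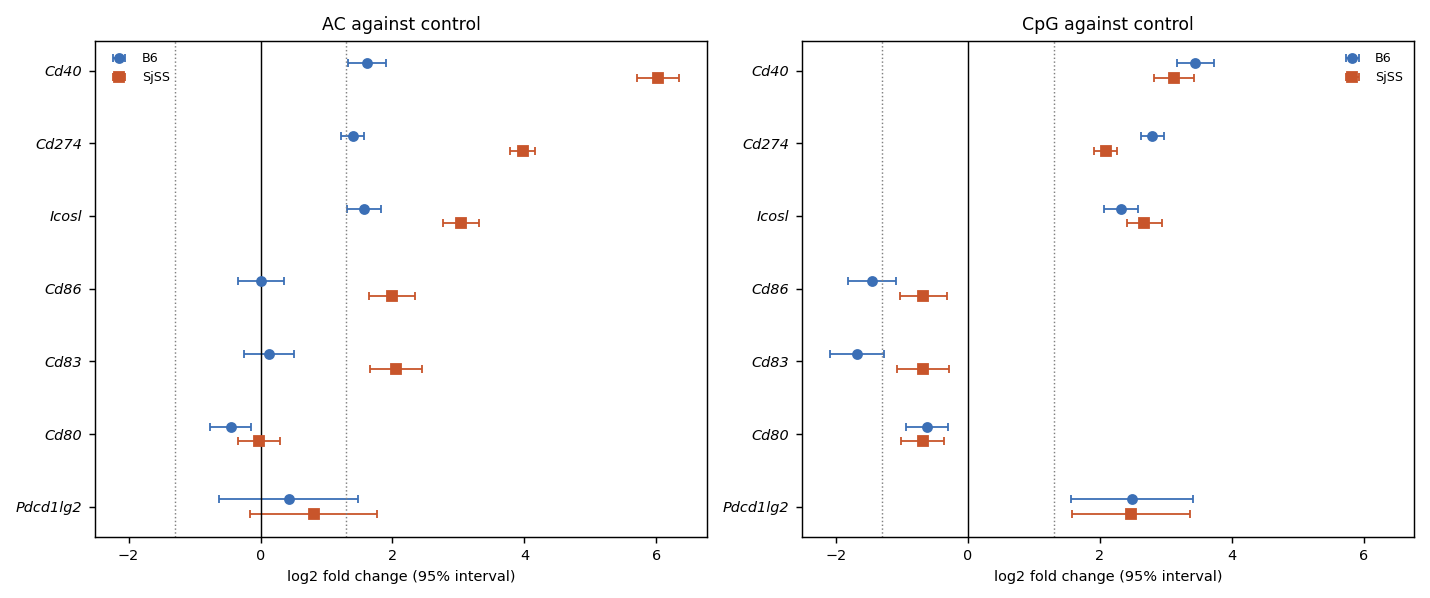
Log2 fold change of each gene with ACs (left) and with CpG (right) against the controls of the same strain, with 95% intervals from edgeR; blue circles are B6 and orange squares SjSS, 3 samples a group, and dotted lines mark the threshold of 1.3. *Cd86* and *Cd83* sit near 0 with ACs in B6, near 2 with ACs in SjSS, and below 0 with CpG in both strains.

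CpG was the microbial stimulus of the design. In B6 BMDMs 4 of 7 genes were called higher and 2 lower, against 5.86% and 6.88% of all genes. *Cd40* rose 10.9-fold (3.45 ± 0.14, adjusted p = 1.26e-13), *Cd274* 6.95-fold (2.80 ± 0.085, adjusted p = 3.87e-15), *Pdcd1lg2* 5.61-fold (2.49 ± 0.44, adjusted p = 8.05e-05) and *Icosl* 5.02-fold (2.33 ± 0.12, adjusted p = 6.57e-12). *Cd83* fell 3.21-fold (-1.68 ± 0.19, adjusted p = 4.06e-07) and *Cd86* fell 2.73-fold (-1.45 ± 0.17, adjusted p = 5.9e-07). In SjSS BMDMs the same 4 genes were called higher, against 4.81% of all genes, and 0 were called lower, against 4.45%. *Cd40* rose 8.70-fold, *Icosl* 6.41-fold, *Pdcd1lg2* 5.57-fold and *Cd274* 4.25-fold. There *Cd83* (-0.68 ± 0.19, adjusted p = 0.00547) and *Cd86* (-0.67 ± 0.17, adjusted p = 0.00229) passed the p threshold and not the fold threshold. *Cd80* was lower with CpG in both strains under the fold threshold, 1.53-fold in B6 (adjusted p = 0.00181) and 1.60-fold in SjSS BMDMs (adjusted p = 0.00099). Of all genes, 29.8% were lower at this p in B6 and 26.4% in SjSS BMDMs.

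The stimuli were then set against each other. In B6 BMDMs ACs gave higher levels than CpG for *Cd83* (log2 difference 1.81 ± 0.20) and *Cd86* (1.46 ± 0.17), and lower levels for *Pdcd1lg2* (-2.06 ± 0.43), *Cd40* (-1.84 ± 0.12) and *Cd274* (-1.40 ± 0.080). These are 2 genes higher and 3 lower of 7, against 3.64% and 3.47% of all genes. *Icosl* was 1.69-fold lower with ACs (adjusted p = 2.57e-05), under the fold threshold, as were 22.4% of genes at any fold. In SjSS BMDMs *Cd40* (2.91 ± 0.13), *Cd83* (2.73 ± 0.20), *Cd86* (2.67 ± 0.17) and *Cd274* (1.88 ± 0.081) were higher with ACs than with CpG, and *Pdcd1lg2* was lower (-1.67 ± 0.40, adjusted p = 0.00176). These are 4 higher and 1 lower, against 5.38% and 3.8% of all genes. At any fold, where 25.7% of genes were higher, *Cd80* was 1.58-fold (adjusted p = 0.00147) and *Icosl* 1.28-fold higher (adjusted p = 0.014), the latter with an adjusted p of 0.0622 without CpG treated SjSS replicate 3 and 0.0591 without AC treated SjSS replicate 2. Thus *Cd40* and *Cd274* were higher with CpG than with ACs in B6 and lower with CpG than with ACs in SjSS BMDMs. ACs and CpG were given for different times, so these differences are between the treatments as given.

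The comparison of strains began with the controls, where none of the 7 genes was called (0 higher, 0 lower, against 1.3% and 0.716% of all genes). Below the fold threshold, *Cd274* was 1.37-fold higher in SjSS controls (0.45 ± 0.080, adjusted p = 0.000619), against 9.04% of genes higher at this p. *Icosl* was 1.49-fold lower (adjusted p = 0.00375), *Cd40* 1.48-fold lower (adjusted p = 0.0147) and *Cd83* 1.45-fold lower (adjusted p = 0.0473), against 10.6% of genes lower. The *Cd83* difference was -0.29 with an adjusted p of 0.211 without SjSS control replicate 3, and its adjusted p was 0.0503 to 0.119 when any 1 of 13 other samples was left out. For *Cd40* the adjusted p was 0.052 without B6 control replicate 3 and 0.0849 without SjSS control replicate 1, where its difference was -0.37.

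With ACs 4 of 7 genes were called higher in SjSS than in B6 BMDMs and 0 lower, against 6.24% and 2.69% of all genes. *Cd40* was 14.4-fold higher (3.85 ± 0.13, adjusted p = 4.26e-14), *Cd274* 8.15-fold (3.03 ± 0.085, adjusted p = 4.46e-15), *Cd86* 3.24-fold (1.70 ± 0.17, adjusted p = 8.65e-08) and *Cd83* 2.60-fold (1.38 ± 0.18, adjusted p = 4.39e-06). *Icosl* was 1.85-fold higher (0.89 ± 0.12, adjusted p = 3.88e-06), short of the fold threshold, and 24% of genes were higher at this p. *Cd80* (0.32, interval 0.002 to 0.64, adjusted p = 0.0882) and *Pdcd1lg2* (0.91, interval -0.064 to 1.88, adjusted p = 0.114) did not pass.

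The interaction of strain and AC tests whether the AC response itself differed. It was called higher for 5 of 7 genes and lower for 0, against 4.76% and 2.77% of all genes. The response of *Cd40* was 21.3-fold larger in SjSS BMDMs (4.41 ± 0.20, adjusted p = 8.97e-12), that of *Cd274* 5.96-fold (2.58 ± 0.11, adjusted p = 8.25e-12), that of *Cd86* 3.96-fold (1.99 ± 0.23, adjusted p = 1.74e-06), that of *Cd83* 3.78-fold (1.92 ± 0.26, adjusted p = 9.69e-06) and that of *Icosl* 2.76-fold (1.47 ± 0.17, adjusted p = 1.89e-06). For *Cd80* it was 0.43 with an interval of -0.013 to 0.88, and for *Pdcd1lg2* 0.38 with an interval of -1.07 to 1.83.

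**Figure D3:**
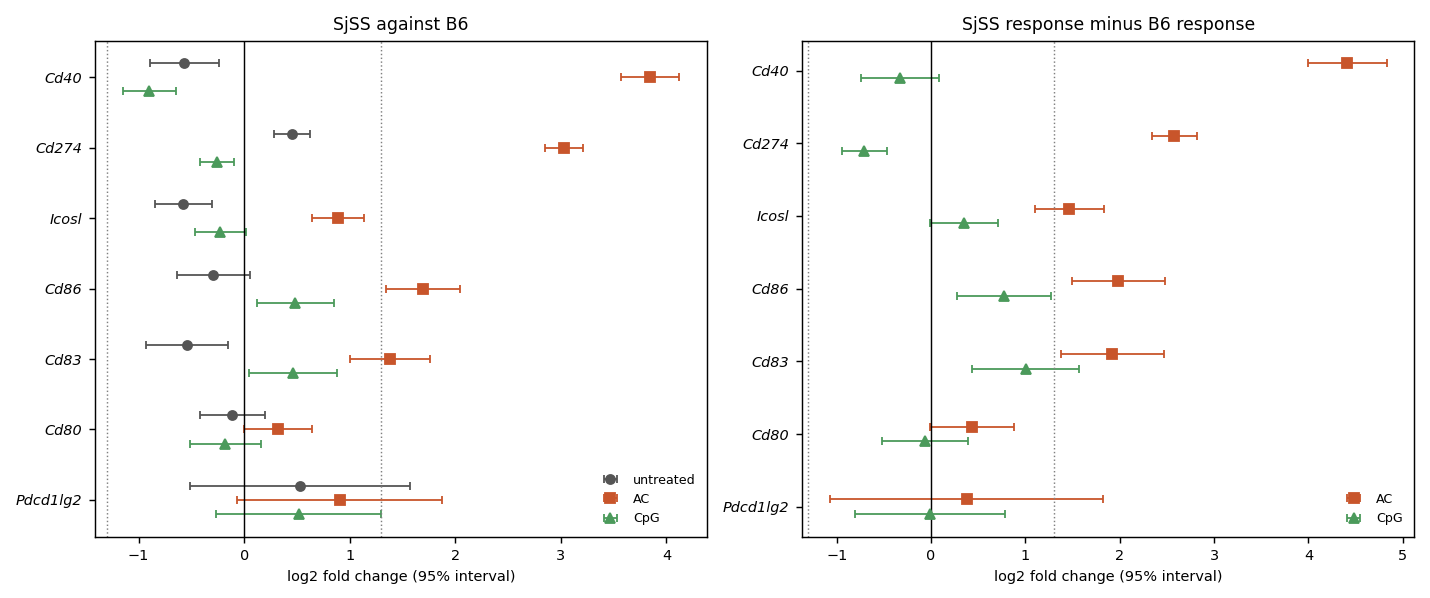
Left, log2 difference of SjSS against B6 BMDMs without treatment (grey circles), with ACs (orange squares) and with CpG (green triangles); right, the difference between the SjSS and the B6 response to ACs and to CpG. Bars are 95% intervals from edgeR and dotted lines mark the threshold of 1.3. With ACs *Cd40*, *Cd274*, *Cd86* and *Cd83* lie beyond the threshold (1.38 to 3.85), and with CpG no gene does.

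With CpG none of the 7 genes was called between strains (0 higher, 0 lower, against 1.82% and 0.792% of all genes). *Cd40* was 1.86-fold lower in SjSS BMDMs (-0.90 ± 0.12, adjusted p = 2.9e-05), against 9.57% of genes lower at this p. *Cd274* was 1.20-fold lower with an adjusted p of 0.027, which became 0.134 without B6 CpG replicate 2, 0.0532 without SjSS CpG replicate 1 and 0.155 without SjSS CpG replicate 2. The interaction of strain and CpG was called for none of the 7 (0 higher, 0 lower, against 0.285% and 0.329% of all genes). The rise of *Cd274* was 1.63-fold smaller in SjSS BMDMs (-0.71 ± 0.11, adjusted p = 0.000977), and 2.62% of genes were lower and 3.23% higher at this p. The *Cd83* response differed by 1.00 ± 0.27 (adjusted p = 0.0344), and this p lay between 0.056 and 0.114 when any of B6 control replicates 2 and 3, the 3 CpG treated B6 samples and CpG treated SjSS replicates 1 and 2 was left out. *Cd86* had 0.77 ± 0.24 (adjusted p = 0.0643). The strain difference with CpG did not pass for *Cd83* (0.47 ± 0.20, adjusted p = 0.11) or *Cd86* (0.48 ± 0.17, adjusted p = 0.0577). Without replicate 3 of both SjSS groups, an omission chosen after seeing the data, it was 0.66 for *Cd83* (adjusted p = 7.2e-05) and 0.62 for *Cd86* (adjusted p = 0.000115), and the *Cd86* interaction was 0.66 (adjusted p = 0.00403).

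Across the 18 samples the genes fell into pairs and groups, described here by Pearson's r of log2 CPM. *Cd86* and *Cd83* went together with r = 0.985, *Cd40* and *Cd274* with r = 0.977, *Cd40* and *Icosl* with r = 0.914 and *Cd274* and *Icosl* with r = 0.879. Between these sets r was 0.029 to 0.336, and for *Cd80* and *Pdcd1lg2* it was -0.795. The samples share 6 group means and a common scaling, so these values describe the groups more than single samples.

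**Figure D4:**
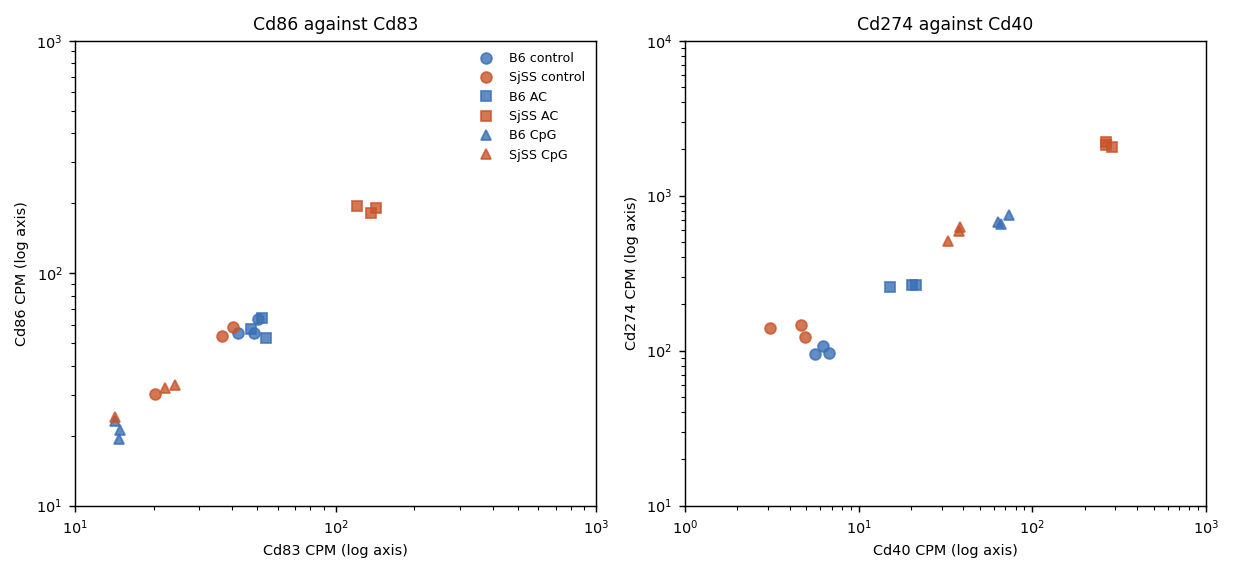
*Cd86* against *Cd83* (left) and *Cd274* against *Cd40* (right), in CPM on log axes, each point 1 of 18 samples; circles are controls, squares AC and triangles CpG treated samples, blue B6 and orange SjSS. *Cd86* and *Cd83* vary together (r = 0.985), also where the third SjSS sample is low, and AC treated SjSS samples lie at the top right of both plots.

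The genes whose pattern over the 18 samples was most like each member were *Myd88* (r = 0.995), the adaptor of Toll-like receptors, *Sav1* (0.993) and *Larp1* (0.992) for *Cd40*. For *Cd274* they were *Naa25* (0.995), the interferon-induced GTPase *Gbp6* (0.994) and the RNA sensor gene *Ddx58* (0.990). For *Icosl* they were *Ube2f* (0.990), *Pstpip2* (0.989) and *Clec4e* (0.989), which encodes the receptor Mincle. After *Cd83*, the genes most like *Cd86* were *Sdcbp* (0.976) and *Gadd45g* (0.969), and after *Cd86* those most like *Cd83* were *Sdcbp* (0.976) and *Nr4a3* (0.962). *Cd80* was nearest to *Gas6* (0.912), a ligand of the TAM receptors and *Chp2* (0.910), and *Pdcd1lg2* to *Cd72* (0.937), *Gm15987* (0.931) and *Arid1a* (0.930).

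The other genes of the pathway were read from lists by role. Of the other B7 family and checkpoint ligands, 13 of 16 were tested. ACs called 0 of 13 in B6 and 2 of 13 higher in SjSS BMDMs, where 7.09% of all genes were called higher. These were *Cd200* (1.73 ± 0.22, adjusted p = 1.68e-06), which restrains myeloid cells, and *Cd47* (1.32 ± 0.077, adjusted p = 2.43e-11), the signal against phagocytosis. *Cd47* fell under the fold threshold at 1.24 without SjSS control replicate 3. *Cd200* was also higher in SjSS than in B6 BMDMs with ACs (1.94 ± 0.22, adjusted p = 7.77e-07). The median over this list was 0.67 with ACs in SjSS and 0.09 in B6 BMDMs, beside -0.02 and 0.001 over all genes. *Fgl1* did not pass the filter, and *Vtcn1* and *Btn2a2* were not analysed here.

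Ligands of the TNF superfamily are costimulators of another structural family, and 6 of 7 were tested. In B6 BMDMs ACs called *Tnfsf15* (2.18 ± 0.22, adjusted p = 2.68e-07) and *Tnfsf4* (1.43 ± 0.25, adjusted p = 0.00017) higher, 2 of 6, against 2.43% of all genes. *Tnfsf4* was at 1.27 without B6 control replicate 3. In SjSS BMDMs 4 of 6 were called higher, against 7.09% of all genes. *Tnfsf15* (TL1A) was at 0.645, 0.651 and 1.02 CPM in SjSS controls and at 87.8, 79.6 and 90.9 CPM with ACs, and it was 18.2-fold higher than in AC treated B6 BMDMs (4.18 ± 0.18, adjusted p = 7.2e-13). *Tnfsf9* (4-1BB ligand) and *Tnfsf4* (OX40 ligand) each rose by 2.73 on the log2 scale and *Tnfsf8* (CD30 ligand) by 2.23. All 4 were also called higher in SjSS than in B6 BMDMs with ACs, against 6.24% of all genes. The median over the 6 was 2.48 in the SjSS response and 1.19 in the B6 response. *Tnfsf14* (LIGHT) went the other way in SjSS BMDMs, at 1.23 to 2.54 CPM in the controls and 0.946 to 1.14 CPM with ACs. *Cd70* was not analysed here.

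Among the receptors of the members, 3 of 6 were tested. *Cd28*, the receptor of CD80 and CD86 and best known on T cells, had 74.8, 76.0 and 59.4 CPM in B6 controls and 69.3, 55.5 and 51.3 CPM in SjSS controls, while the T cell receptor genes did not pass the filter. With ACs it was at 21.0, 23.8 and 26.5 CPM in B6 (-1.56 ± 0.15, adjusted p = 1.36e-07, called lower) and at 31.0, 27.9 and 28.2 CPM in SjSS BMDMs (-1.02 ± 0.15, adjusted p = 8.34e-06, under the fold threshold). With CpG it fell 12.1-fold in B6 and 7.31-fold in SjSS BMDMs, to 5.36 to 10.2 CPM. *Pdcd1*, which encodes PD-1, did not pass the filter and was at or under 0.362 CPM, and *Cd40lg* and *Ctla4* were not analysed here.

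Of all genes, ACs called 2.43% higher in B6 and 7.09% in SjSS BMDMs. Of the 9 genes of CD40 signalling, ACs called 1 higher in B6, *Traf1* (3.36 ± 0.18, adjusted p = 8.63e-11), and 5 in SjSS BMDMs. These were *Traf1* (4.69 ± 0.18), *Tank* (2.21 ± 0.12), *Birc3* (2.11 ± 0.086), *Traf2* (1.61 ± 0.066) and *Traf5* (1.43 ± 0.091), which encode adaptors of TNF receptors and an inhibitor of apoptosis bound to them. With ACs in B6 BMDMs *Birc3* (1.24 ± 0.084, adjusted p = 1.34e-09) and *Tank* (0.48 ± 0.11, adjusted p = 0.00259) also rose, under the fold threshold. *Traf1* (1.85 ± 0.15) and *Traf5* (1.35 ± 0.090) were higher in SjSS than in B6 BMDMs with ACs, *Traf5* at 1.28 without AC treated B6 replicate 3. Of 5 genes of surface turnover, *March1*, the ubiquitin ligase that removes CD86 from the surface, was the 1 called with ACs in SjSS BMDMs (1.83 ± 0.093, adjusted p = 2.93e-12), and 0 of 5 were called in B6. Its samples were at 109, 96.4 and 91.2 CPM in SjSS controls, 335, 348 and 371 CPM with ACs in SjSS and 106, 121 and 118 CPM with ACs in B6 BMDMs. With CpG *March1* rose in B6 BMDMs (1.77 ± 0.093, adjusted p = 5.45e-12), where *Cd86* fell. *March1* mRNA was higher both where *Cd86* mRNA rose and where it fell. The RNA-seq does not measure CD86 at the surface, and a link between these genes was not tested.

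Interferon signalling is a known inducer of *Cd274*, and all 11 genes of its list were tested. ACs called 0 of 11 in B6 and 5 of 11 higher in SjSS BMDMs, against 2.43% and 7.09% of all genes called higher. The medians over the list were 0.02 and 0.75. The transcription factor gene *Irf1* was at 126, 131 and 126 CPM in AC treated B6 and at 1373, 1453 and 1285 CPM in AC treated SjSS BMDMs (4.12 ± 0.11 against SjSS controls, adjusted p = 6.78e-16). Among the others that rose were *Stat2* (2.78 ± 0.14), *Jak2* (2.50 ± 0.096) and *Irf9* (1.39 ± 0.079). Against AC treated B6 BMDMs, 4 of 11 were called higher in SjSS, with *Irf1* (3.42 ± 0.11), *Stat2* (2.44 ± 0.14) and *Jak2* (1.59 ± 0.093) among them. Of all genes, 6.24% were called higher there. With CpG 2 of 11 were called higher in B6, *Stat2* among them (1.92 ± 0.14, adjusted p = 6.39e-10), and 0 in SjSS BMDMs, while *Cd274* rose in both. The shares of all genes called higher with CpG were 5.86% in B6 and 4.81% in SjSS BMDMs.

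**Figure D5:**
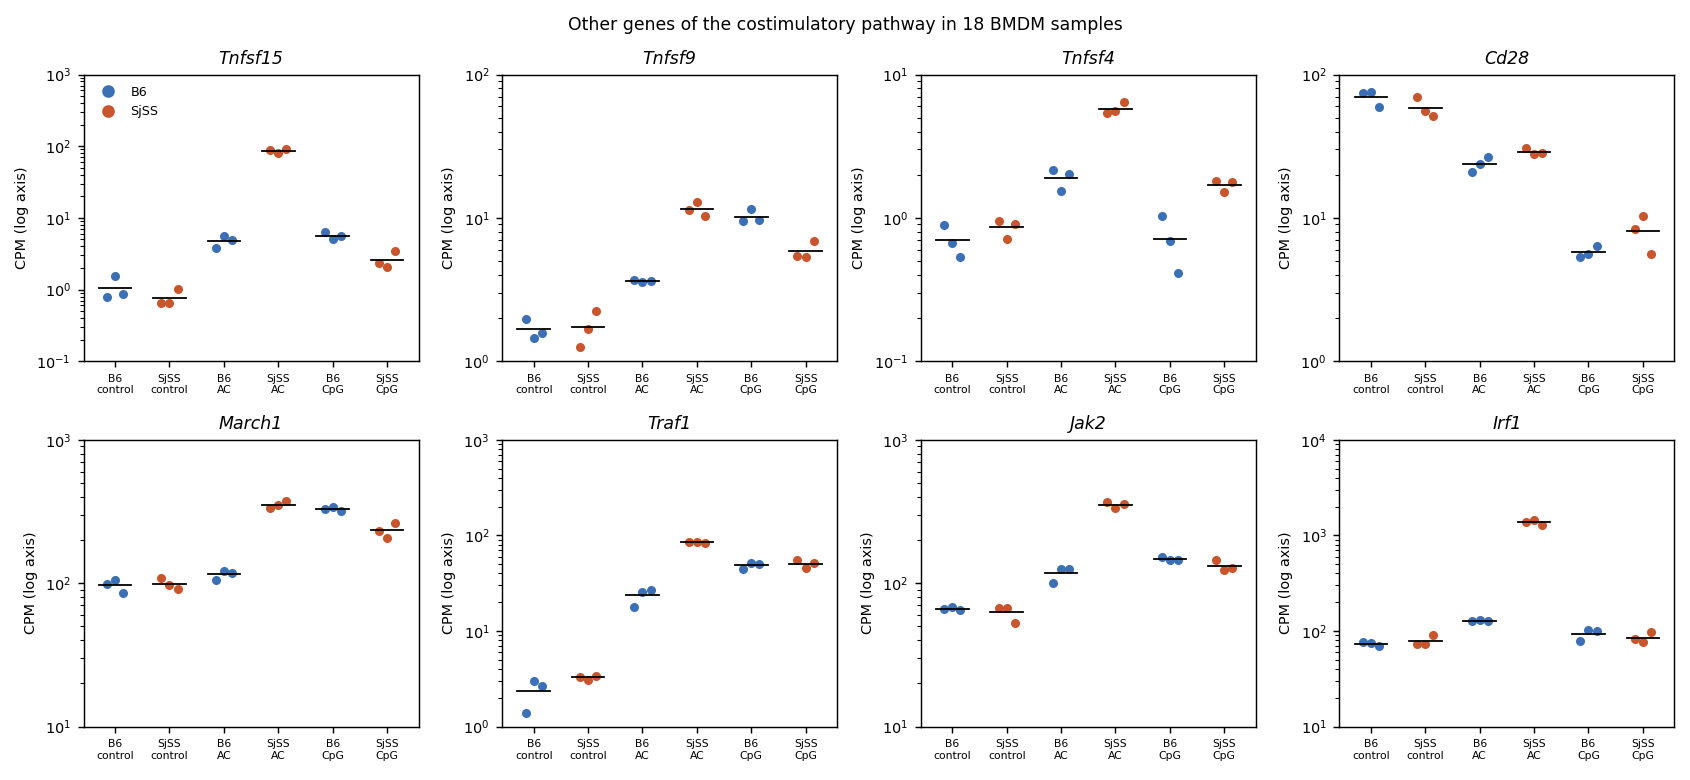
Level in CPM on a log axis of 8 other genes of the pathway in the 6 groups; points are samples (blue B6, orange SjSS) and lines are means of 3. AC treated SjSS samples are highest for *Tnfsf15* (79.6 to 90.9 CPM) and *Irf1* (1285 to 1453 CPM), and *Cd28* is highest in the controls.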

How the data were processed

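RNA-seq of 18 BMDM samples in 6 groups of 3 was used. The authors aligned the reads with STAR to mm10 and quantified them by E/M in Partek, whose versions and strand setting are not given in the sources used here. The authors deposited estimated counts, not normalized, for 20615 genes. Of these, 41.1% were fractional (tolerance 1e-06), and all were rounded; E/M can share a read between features, and none of the 7 genes overlaps another. Spreadsheet dates stood in place of 23 gene symbols, 22 of which were recovered by position in GENCODE M21, *March1* among them. Coordinates are those deposited, with ends corrected by 1 base.

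All samples were fitted in edgeR 4.0.16 (R 4.3.3) after filterByExpr and TMM with a mean for each group, and 11 contrasts were tested by quasi-likelihood. All 7 genes were among the 15789 that passed the filter. Benjamini-Hochberg adjustment was over all of these, and calls needed an adjusted p below 0.05 with a log2 fold change beyond 1.3 in either direction. SEs came from the F statistics. TMM factors were 0.833 to 0.838 in AC treated SjSS samples and 0.942 to 1.13 in the others. CPM for each kb used GENCODE exon unions, and likeness was Pearson's r of log2 CPM with a prior count of 2. The edgeR and DESeq2 calls were tested on simulated counts for the AC response in SjSS, the strain by AC interaction and the untreated strain difference. The other contrasts and steps were not. Whether samples of different treatments with 1 number came from the same mouse is not stated.

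The 7 genes, the lists and the tests were chosen with earlier results of these data known. The text names the 7 genes, the 3 genes most like each, and, from each pathway list, genes called with ACs within or between strains (at most 4 for each list and comparison) or under the filter. *Traf5* and *Irf9* in the SjSS response, *Stat2* with CpG, *Jak2* for its position, and *Cd4*, *Lck*, *Xcr1*, *Camp* and *Flt3* were named after their values were seen. So were the other single markers of thymocytes, dendritic cells and neutrophils, *Birc3* and *Tank* in the B6 response, and *Tnfsf14*. Some genes that this rule covers are not reported here. Alternatives were DESeq2 1.42.0, its size factors within edgeR, no filter, no fold threshold, fits of fewer groups, a replicate block, Spearman's rho and the omission of each sample. Omitting replicate 3 of both SjSS groups was chosen after seeing the data.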

Additional observations from a re-analysis of the deposited data

Results flagged for a closer look

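The response to ACs differed between the strains by the interaction test for 5 of the 7 genes. The difference of the SjSS from the B6 response, in log2 units, was 4.413 for *Cd40*, 2.576 for *Cd274*, 1.986 for *Cd86*, 1.92 for *Cd83* and 1.465 for *Icosl*, and in each case the AC treated SjSS samples lay above every other AC treated or control sample. These 5 differences kept their call in every alternative that was run.

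The response to CpG differed at an adjusted p under 0.05 for *Cd274* (-0.708) and *Cd83* (1.004), both short of the fold threshold. *Cd274* was higher in SjSS than in B6 controls and lower in CpG treated SjSS than in CpG treated B6 samples. For *Cd83* the fall with CpG was smaller in SjSS BMDMs, where the third sample was low in both groups, and the adjusted p of 0.0344 was 0.0878 when only the groups compared were fitted.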

How the results depend on the processing

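All calls of the 7 genes at both thresholds, in the 11 comparisons, were the same under DESeq2, its size factors, no filter, the compared groups only, the replicate block and each sample left out. Of the values of single members under these settings, 1825 kept direction and side of the threshold and 21 changed sign, all for differences that were not called. With no fold threshold, the counts of genes that were 0 became 1 lower with ACs in B6, 3 lower with CpG in SjSS, 1 higher and 3 lower between untreated strains, 2 lower between strains with CpG, and 1 higher and 1 lower for the interaction with CpG. The changes of sign were for *Cd86* with ACs in B6 (-0.002 with the compared groups only, -0.067 to 0.078 with a sample left out), *Cd80* with ACs in SjSS (0.001 under DESeq2 and under its size factors, -0.125 to 0.041 with a sample left out), *Cd80* between strains with CpG (-0.289 to 0.016) and in the CpG interaction (-0.178 to 0.127), and *Pdcd1lg2* in the AC interaction (-0.102 to 0.732) and the CpG interaction (-0.337 to 0.342, all with a sample left out, and 0.242 without replicate 3 of both SjSS groups); their cause was not tested. For other list genes, 1739 calls remained and 28 were lost. Among the 3 genes most like each member, 1 was also among the top 3 by Spearman's rho for *Cd40* and for *Cd80*, and 0 for the others.

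Samples with the same number correlated at 0.02 to 0.264 in B6 and 0.027 to 0.142 in SjSS BMDMs after removal of the group means, over 0.1 in 5 of 9 and 4 of 9 pairs, and the own number was highest in 32 of 36 cases, a hint from the data and not the design. With the replicate number as a block, *Pdcd1lg2* in the CpG interaction was at 0.064, no call changed, and 2 differences of *Cd86* short of the fold threshold passed the adjusted p, the CpG interaction (0.80, adjusted p = 0.0188) and the strain difference with CpG (0.47, adjusted p = 0.0473). Depth limits *Pdcd1lg2* most, with 2 to 51 counts in a sample.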
